A study of Homo sapiens with 36 samples.

Results

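The 8 genes of cholesterol synthesis and of its transcriptional control described here are INSIG1, SREBF2, HMGCS1, MVD, IDI1, FDFT1, SQLE and STARD4. They were found by their symbols, as 8 of the 21797 genes in the deposited RNA-seq table, and each symbol matched 1 row. UM-SCC-1 is a human line established from a head and neck cancer. The cells received a retrovirus coding for an shRNA, a hairpin RNA that lowers a chosen messenger, and were kept in 10 ug/mL blasticidin for 4 days. RNA levels come from 15 libraries in 6 groups: ALKBH5 shRNA-1 (n = 2), ALKBH5 shRNA-2 (n = 2) and ALKBH5 scramble (n = 3), and RBM33 shRNA-1 (n = 2), RBM33 shRNA-2 (n = 3) and RBM33 scramble (n = 3). Another 3 RNA-seq libraries named in the labels were not analysed here. Titles say shRNA where the protocol says siRNA, and the titles are followed. All groups, scramble included, were infected and drug-selected, and each knockdown set has a scramble group of its own. The study uses 1 line. Nothing in the labels ties replicates to cultures of their own, so the p-values speak of the spread between these libraries, which may be technical.

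ALKBH5 is an enzyme that takes the methyl mark m6A (N6-methyladenosine) off RNA, and RBM33, a protein that binds RNA, is reported to work with it. Cholesterol is built from acetyl-CoA through mevalonate, farnesyl diphosphate and squalene. The transcription factor SREBP-2, encoded by SREBF2, turns on the genes of this route. When membranes are rich in sterol, INSIG proteins hold SREBP-2 and its escort SCAP in the endoplasmic reticulum, and when sterol is low the factor is cut free and enters the nucleus. INSIG1 is itself one of its targets, so that its RNA is often read beside those of the enzymes.

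Promoter sequences are shown for 4 of the genes because the family is known for shared upstream elements, the sterol regulatory element bound by SREBP and the CCAAT box bound by NF-Y. Each runs 5′ to 3′ on the strand of the gene and ends at the base before the most upstream start that the deposited table annotates. Sequences are from RefSeq (GRCh38.p14), at chr7:155297628-155297775 (plus strand) for INSIG1, chr22:41832855-41833078 (plus) for SREBF2, chr16:88663162-88663341 (minus) for MVD and chr5:111512591-111512785 (minus) for STARD4. Capitals mark matches, on either strand, to the sterol element core TCACNCCAC or to CCAAT, which reads ATTGG on the other strand.
INSIG1: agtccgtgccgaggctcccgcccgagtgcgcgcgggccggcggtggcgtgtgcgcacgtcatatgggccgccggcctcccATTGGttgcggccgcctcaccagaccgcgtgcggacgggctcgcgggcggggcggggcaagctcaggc
SREBF2: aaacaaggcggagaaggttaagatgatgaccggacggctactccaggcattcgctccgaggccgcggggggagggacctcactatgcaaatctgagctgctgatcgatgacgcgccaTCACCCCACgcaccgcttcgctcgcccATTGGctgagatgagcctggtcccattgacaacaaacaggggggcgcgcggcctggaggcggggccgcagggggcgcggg
MVD: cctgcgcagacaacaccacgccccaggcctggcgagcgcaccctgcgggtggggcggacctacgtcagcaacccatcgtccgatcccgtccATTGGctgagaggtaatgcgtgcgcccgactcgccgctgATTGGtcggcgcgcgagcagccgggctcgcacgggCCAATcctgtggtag
STARD4: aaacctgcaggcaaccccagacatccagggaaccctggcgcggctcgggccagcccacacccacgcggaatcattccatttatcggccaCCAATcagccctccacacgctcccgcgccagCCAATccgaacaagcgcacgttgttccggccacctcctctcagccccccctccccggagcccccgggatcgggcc
Motifs were searched in windows of 250 bases before to 50 bases after a RefSeq start, and 6 of the genes were searched in 9 such windows, SQLE and FDFT1 being the other two. The core TCACNCCAC was found in the window of SREBF2, 133 bases before the start, and in 1.13% of all 35116 RefSeq windows. Other spellings of the element and positions outside the windows were not searched, so the other genes are not shown to lack one. CCAAT was found in 7 of the 9 windows, against 34.6% of all windows. The 2 without it belong to HMGCS1 and IDI1, each of which has it in another window. Both genes have more than 1 window, some of them overlapping, so the windows are not separate genes. A share of all genes with CCAAT is not given here. MVD had 3 matches, at 159, 120 and 85 bases before its start, and STARD4 had 2, at 161 and 130 bases. These letters are a description of the windows and were not tied to any factor in these cells.

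Libraries held 4493849 to 6733017 reads in listed genes. Levels are in CPM, read counts that the authors scaled to a common library size, and 3 reads, the limit that a count of 0 allows, came to 0.43 to 0.66 CPM. ALKBH5 averaged 83.5 CPM in the ALKBH5 shRNA libraries and 121 CPM in the ALKBH5 scramble libraries, a difference of -0.53 in log2(CPM + 1) (SE 0.08, limma adjusted p = 9.1e-05). RBM33 itself averaged 203 CPM in libraries labelled RBM33 shRNA and 217 CPM in the RBM33 scramble libraries, with overlapping ranges and a difference of -0.10 (SE 0.06, 95% interval -0.23 to 0.02, limma adjusted p = 0.27). A fit with the trend over gene length removed gave -0.20 (limma adjusted p = 0.027). The targeted gene was therefore not called reduced in that set by the test used throughout, and the wording "labelled RBM33 shRNA" is kept for those libraries. Of 9 markers of squamous epithelium, 4 are in the table of levels. Of these, DSP (170 to 215 CPM) and PERP (49.5 to 67.9 CPM) were well expressed in all 15 libraries, while SFN and ITGB4 stayed at 4.01 CPM or less. The defining markers KRT5, KRT14, KRT17, KRT6A and TP63 had mean normalized counts of 0.521 to 6.44 in the authors' deposited DESeq2 tables, where the 8 genes had 55.7 to 394. The labelled cell type is thus not borne by these markers, and the cells are called by the name of the line. Among 11 markers in that table of fibroblasts, leukocytes, endothelium, hepatocytes and adipocytes, only the fibroblast list held a gene averaging at least 10 CPM, COL1A1 at 14.5 to 23.8 CPM. The fibroblast list summed to 25.7 to 30.4 CPM in the ALKBH5 shRNA libraries, 24.3 to 28.6 CPM in the ALKBH5 scramble libraries, 19.1 to 25.1 CPM in those labelled RBM33 shRNA and 20.9 to 26.6 CPM in the RBM33 scramble libraries. ALB, a hepatocyte marker, ranged a few reads higher with the shRNAs, but the ranges overlapped in both sets and were not tested. It had 0.771 to 2.48 CPM with the ALKBH5 shRNAs against 0 to 0.922 CPM with ALKBH5 scramble. In libraries labelled RBM33 shRNA it had 0.66 to 2.35 CPM, against 0 to 0.809 CPM with RBM33 scramble. The part of such RNA in the results was not tested.

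All 8 genes were expressed in every library, with 38 to 552 reads each, and all passed the filter on low values, an average of 1 CPM or more. Ordered by level per kilobase of annotated length in the 6 scramble libraries, FDFT1 was highest at 15.1 ± 1.63 CPM per kb (SD, n = 6), followed by INSIG1 at 11.2 ± 0.81. SREBF2 (9.52 ± 0.50), SQLE (8.58 ± 0.94) and IDI1 (6.71 ± 0.60) came next, and each of these overlapped its neighbour among them in range. HMGCS1 (3.27 ± 0.53), STARD4 (3.09 ± 0.42) and MVD (2.95 ± 0.64 CPM per kb) were lowest and overlapped one another. Antisense genes overlap 3 of them: IDI2-AS1 lies over IDI1 for 6274 bases, STARD4-AS1 over STARD4 for 2195 bases and SREBF2-AS1 over SREBF2 for 1587 bases. Their own levels averaged 0.825, 1.56 and 0.928 CPM, far below those of their partners. No source used here gives the strand setting of the counting, so reads of a pair cannot be told apart.

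**Figure D1:**
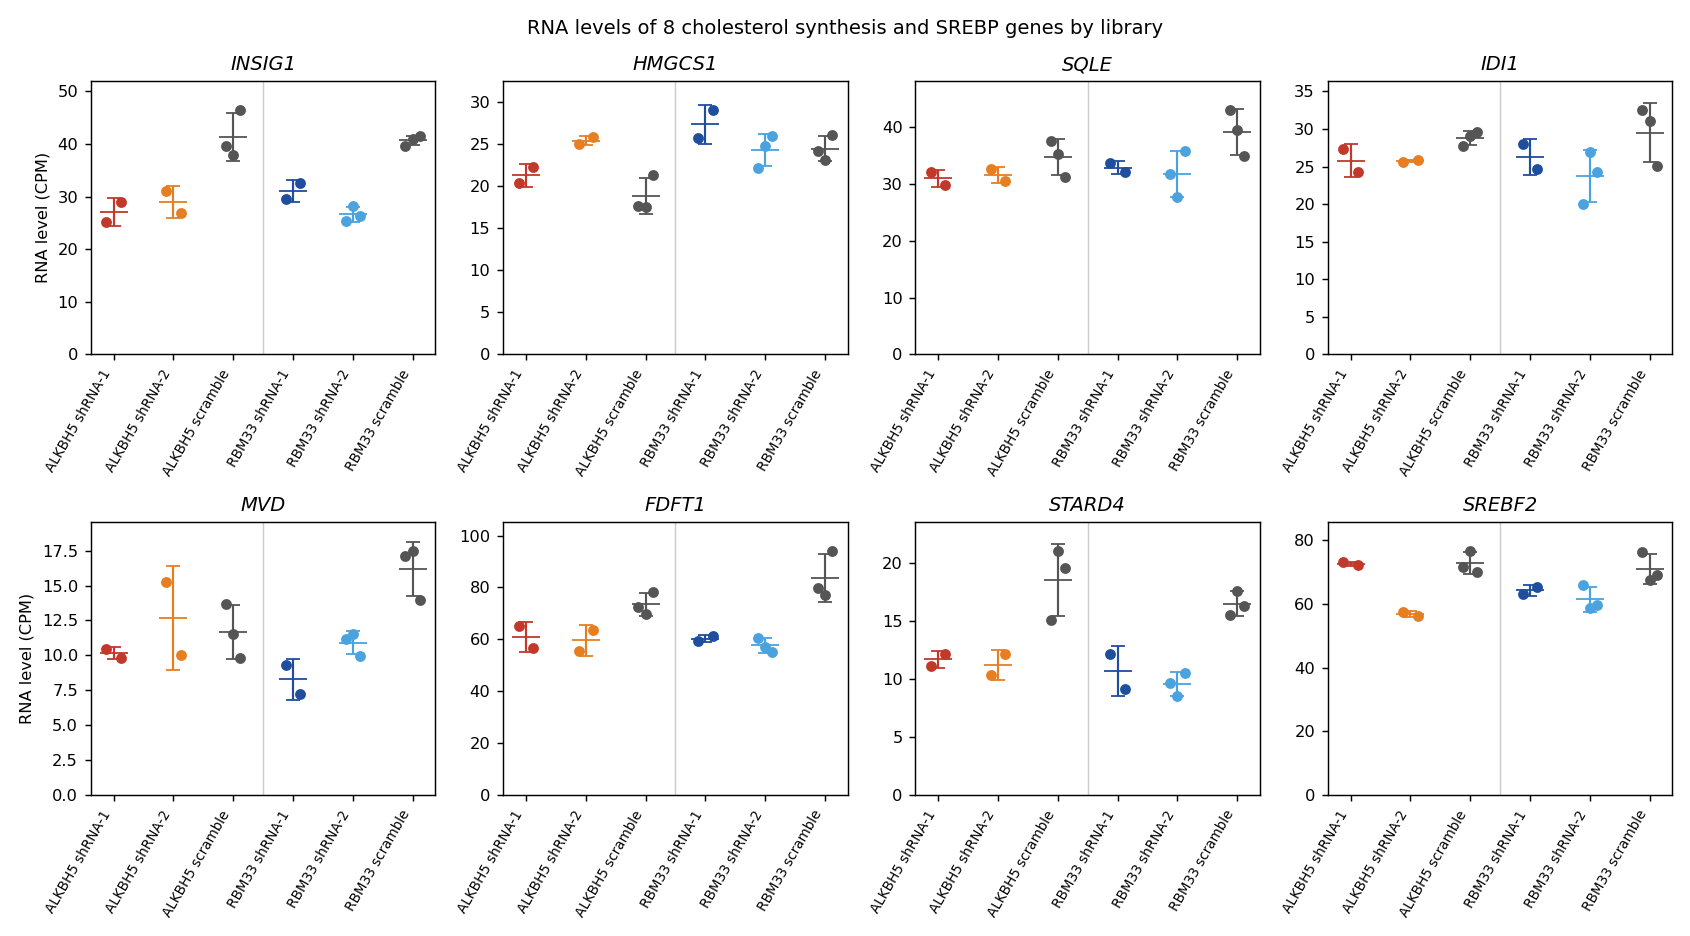
RNA level in CPM (vertical axes, from 0, a scale for each gene) of the 8 genes in each of 15 libraries, in 6 groups; points are libraries and bars the group mean with its SD. INSIG1 and STARD4 lie lower in all shRNA libraries than in the scramble libraries of the same set, and MVD lies below its scramble range in the libraries labelled RBM33 shRNA.

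The first comparison asks which of the 8 RNAs differ when ALKBH5 is targeted, and the second asks the same of RBM33. INSIG1, STARD4 and FDFT1 fell with the ALKBH5 shRNAs. The same 3 genes and MVD fell in the libraries labelled RBM33 shRNA. None rose in either set, and HMGCS1, IDI1, SQLE and SREBF2 were called in neither. The 3 of 8 called in the ALKBH5 set stand beside 15.1% of all 18227 genes tested (7.18% lower), and the 4 of 8 in the RBM33 set beside 17.7% (9.25% lower). Of all genes, 7.93% rose in the ALKBH5 set and 8.5% in the RBM33 set. Among the 12887 genes averaging at least 5 CPM the shares called were larger, 22% in the ALKBH5 set and 24.6% in the RBM33 set. Of those 12887 genes, 1409 and 1708 were called lower, and 3 and 4 of the 8 genes were called there too. The median difference of the 8 genes was -0.17 in the ALKBH5 set and -0.38 in the RBM33 set, against 0.005 and -0.012 over all genes. In the ALKBH5 set 4 of the 8 genes, and in the RBM33 set 5, had every shRNA library below every scramble library, which held for 11.9% and 11.6% of all genes. The 8 genes were chosen with earlier results of these data known, so these comparisons with all genes are a description. The share of all genes called was 9.38% in the ALKBH5 set without ALKBH5 scramble replicate 1, where 2 of the 8 were called. Without ALKBH5 scramble replicate 2 it was 11%, and 1 of the 8 was called. In the RBM33 set it was 11.4% and 11.3% without RBM33 scramble replicate 1 or 2, where 4 were called. Calls are Benjamini-Hochberg adjusted p-values under 0.05 from limma on log2(CPM + 1), the scale of every difference given, which understates changes of genes with low levels. In bulk RNA, fewer cells expressing a gene and less RNA per cell cannot be told apart.

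INSIG1, which encodes the protein that retains SREBP-2 and its escort in the endoplasmic reticulum, had 25.2 and 29.0 CPM with ALKBH5 shRNA-1 and 31.1 and 26.8 CPM with ALKBH5 shRNA-2, against 39.6, 37.8 and 46.4 CPM with ALKBH5 scramble. The libraries labelled RBM33 shRNA-1 gave 29.6 and 32.5 CPM and those labelled RBM33 shRNA-2 gave 25.3, 28.2 and 26.4 CPM, against 39.6, 40.9 and 41.4 CPM with RBM33 scramble. No shRNA library of either set reached its scramble range. The difference was -0.54 with the ALKBH5 shRNAs (SE 0.11, limma adjusted p = 0.0015) and -0.49 with the libraries labelled RBM33 shRNA (SE 0.10, limma adjusted p = 0.0021), which leaves 68.0% and 69.8% of the scramble means. The difference passed for each ALKBH5 shRNA alone and for RBM33 shRNA-2, and gave an adjusted p of 0.062 (limma) for RBM33 shRNA-1.

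SREBF2, the gene of SREBP-2 itself, was called lower with 1 of the ALKBH5 hairpins. It had 73.1 and 72.2 CPM with ALKBH5 shRNA-1 and 57.5 and 56.3 CPM with ALKBH5 shRNA-2, against 71.8, 76.7 and 70.1 CPM with ALKBH5 scramble. With shRNA-2 both libraries were below the scramble range and the difference was -0.35 (SE 0.10, limma adjusted p = 0.023), while shRNA-1 sat inside that range (limma adjusted p = 0.99). The difference between the hairpins was not tested. Over both hairpins it was -0.18 (SE 0.08, limma adjusted p = 0.15). The libraries labelled RBM33 shRNA-1 had 63.1 and 65.5 CPM and those labelled RBM33 shRNA-2 had 66.0, 58.8 and 59.8 CPM, against 76.3, 67.6 and 69.2 CPM with RBM33 scramble. These ranges did not overlap either, but the difference of -0.17 (SE 0.08) did not pass (limma adjusted p = 0.14). The shRNA-2 call was lost without either ALKBH5 shRNA-2 library (limma adjusted p = 0.11 each), without ALKBH5 scramble replicate 1 (limma adjusted p = 0.05) or 2 (limma adjusted p = 0.084), and with the trend over gene length removed (limma adjusted p = 0.056).

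HMGCS1, the cytosolic synthase that makes HMG-CoA, was the one gene with a positive difference in both sets, and neither passed. It had 20.4 and 22.2 CPM with ALKBH5 shRNA-1 and 25.0 and 25.8 CPM with ALKBH5 shRNA-2, against 17.7, 17.5 and 21.3 CPM with ALKBH5 scramble. Both shRNA-2 libraries and 1 shRNA-1 library lay above the scramble range. The difference was 0.30 over both hairpins (SE 0.12, 95% interval 0.04 to 0.55, limma adjusted p = 0.11) and 0.42 with shRNA-2 alone (SE 0.15, limma adjusted p = 0.069). Without ALKBH5 scramble replicate 3 the shRNA-2 difference was 0.51 (limma adjusted p = 0.049), and with the length trend removed it was 0.46 (limma adjusted p = 0.048). In the other set the libraries labelled RBM33 shRNA-1 gave 25.7 and 29.0 CPM and those labelled RBM33 shRNA-2 gave 22.2, 24.8 and 26.0 CPM, against 24.3, 23.1 and 26.1 CPM with RBM33 scramble. There the ranges overlapped, with a difference of 0.07 (SE 0.12, limma adjusted p = 0.72).

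MVD encodes mevalonate diphosphate decarboxylase, which makes isopentenyl diphosphate. The libraries labelled RBM33 shRNA-1 gave 9.34 and 7.26 CPM and those labelled RBM33 shRNA-2 gave 11.2, 11.5 and 9.97 CPM, against 17.1, 17.5 and 14.0 CPM with RBM33 scramble. All 5 were below the scramble range, and MVD fell to 60.9% of the scramble mean, a difference of -0.71 (SE 0.17, limma adjusted p = 0.006). In the ALKBH5 set the values were 10.5 and 9.84 CPM with shRNA-1 and 15.3 and 10.0 CPM with shRNA-2, against 13.7, 11.5 and 9.80 CPM with scramble. Those groups overlapped and differed by -0.04 (SE 0.18, 95% interval -0.41 to 0.33, limma adjusted p = 0.92). MVD had the fewest reads of the 8 genes, 38 to 108 a library.

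IDI1, the isomerase that supplies dimethylallyl diphosphate, averaged 25.8 CPM with the ALKBH5 shRNAs and 28.8 CPM with ALKBH5 scramble. All 4 ALKBH5 shRNA libraries (24.2 to 27.4 CPM) lay just below the 3 scramble libraries (27.8 to 29.6 CPM), yet the difference of -0.16 (SE 0.13) did not pass (limma adjusted p = 0.45). In the libraries labelled RBM33 shRNA IDI1 ranged over 20.0 to 28.0 CPM, against 25.0 to 32.5 CPM with RBM33 scramble, a difference of -0.23 (SE 0.12, limma adjusted p = 0.20).

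FDFT1, the squalene synthase at the branch point to sterols, was the most abundant of the 8 per kilobase. It had 65.1 and 56.9 CPM with ALKBH5 shRNA-1 and 55.4 and 63.8 CPM with ALKBH5 shRNA-2, against 72.5, 69.8 and 78.4 CPM with ALKBH5 scramble. The libraries labelled RBM33 shRNA-1 gave 59.3 and 61.1 CPM and those labelled RBM33 shRNA-2 gave 60.7, 57.0 and 55.3 CPM, against 79.7, 77.0 and 94.0 CPM with RBM33 scramble. Both sets were free of overlap. FDFT1 fell by 0.49 in the RBM33 set (SE 0.09, limma adjusted p = 0.00035), and each hairpin passed alone. In the ALKBH5 set it fell by 0.28 (SE 0.09, limma adjusted p = 0.037), and neither hairpin passed alone (limma adjusted p = 0.14 and 0.082). The ALKBH5 call was lost in a fit of that set alone (limma adjusted p = 0.053). It was also lost without any 1 of 5 libraries, ALKBH5 shRNA-1 replicate 2, shRNA-2 replicate 1 and scramble replicates 1, 2 and 3, with differences of -0.32 to -0.23 and limma adjusted p-values of 0.051 to 0.16.

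SQLE, the epoxidase that acts on squalene and is a rate-limiting step of the sterol branch, ranged over 29.9 to 32.7 CPM with the ALKBH5 shRNAs, against 31.3 to 37.5 CPM with ALKBH5 scramble. The difference was -0.14 (SE 0.11, limma adjusted p = 0.45). In the libraries labelled RBM33 shRNA it ranged over 27.8 to 35.8 CPM, against 34.9 to 43.0 CPM with RBM33 scramble, a difference of -0.27 (SE 0.11, 95% interval -0.49 to -0.04, limma adjusted p = 0.092). The ranges overlapped in both sets.

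STARD4 encodes a soluble carrier that moves cholesterol between membranes, and was the gene with the largest fall of the 8 in the ALKBH5 set. It had 11.2 and 12.2 CPM with ALKBH5 shRNA-1 and 10.3 and 12.1 CPM with ALKBH5 shRNA-2, against 15.1, 21.1 and 19.6 CPM with ALKBH5 scramble. The libraries labelled RBM33 shRNA-1 gave 12.2 and 9.17 CPM and those labelled RBM33 shRNA-2 gave 9.67, 8.55 and 10.6 CPM, against 15.5, 17.6 and 16.4 CPM with RBM33 scramble. Every shRNA library was below every scramble library in both sets. STARD4 fell by 0.64 in the ALKBH5 set (SE 0.17, limma adjusted p = 0.01) and by 0.66 in the RBM33 set (SE 0.16, limma adjusted p = 0.0053), to 61.7% and 60.8% of the scramble means. Without ALKBH5 scramble replicate 2, the highest of its group, the ALKBH5 difference was -0.55 (limma adjusted p = 0.067).

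**Figure D2:**
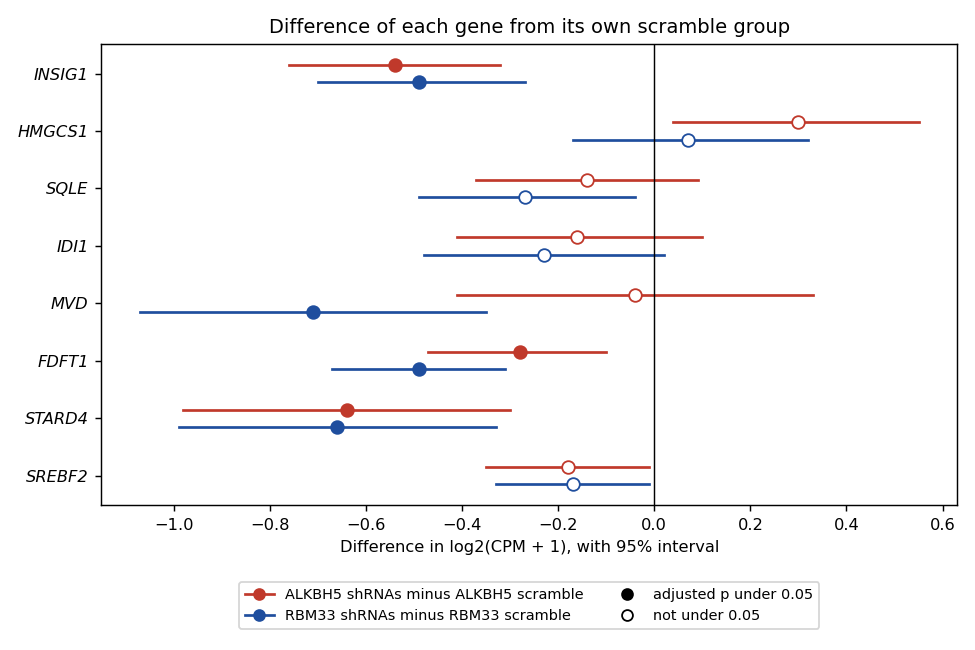
Difference in log2(CPM + 1) (horizontal axis) of each of the 8 genes, shRNA libraries minus the scramble libraries of the same set, with 95% intervals; red is the ALKBH5 set, blue the RBM33 set, and filled points have adjusted p-values under 0.05. Filled points lie at -0.28 to -0.64 in the ALKBH5 set and at -0.49 to -0.71 in the RBM33 set, and HMGCS1 alone lies right of 0.

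Whether the sets differ was tested as the ALKBH5 effect minus the RBM33 effect. None of the 8 genes passed, against 2.69% of all genes (1.46% to 1.75% without any 1 of ALKBH5 shRNA-2 replicate 1, ALKBH5 scramble replicate 1 and RBM33 scramble replicates 1 and 2), and the lowest limma adjusted p was 0.18. That was MVD, with a difference of effects of 0.67 (SE 0.25), so its call in the RBM33 set and not in the ALKBH5 set is not shown to be a difference between them. The scramble groups themselves were compared too. None of the 8 passed, against 2.48% of all genes (1.32% to 1.55% without any 1 of ALKBH5 scramble replicate 3 and the 3 RBM33 scramble libraries). MVD and HMGCS1, 2 of the 8, had every ALKBH5 scramble library below every RBM33 scramble library, as did 11.9% of all genes. MVD averaged 11.7 CPM with ALKBH5 scramble and 16.2 CPM with RBM33 scramble (difference -0.44, SE 0.19, limma adjusted p = 0.28), and HMGCS1 18.8 and 24.5 CPM in the same order (difference -0.37, SE 0.13, limma adjusted p = 0.17). For MVD the shRNA groups of the sets were closer, at 11.4 CPM with the ALKBH5 shRNAs and, in libraries labelled RBM33 shRNA, 9.86 CPM. The part of the scramble groups in these results was not tested.

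Taken one by one, the hairpins gave 1 called gene for ALKBH5 shRNA-1 (INSIG1, beside 8.53% of all genes, 3.48% lower), 3 for ALKBH5 shRNA-2 (INSIG1, STARD4 and SREBF2, beside 10.1%, 5.0% lower), 2 for RBM33 shRNA-1 (MVD and FDFT1, beside 10.9%, 5.27% lower) and 3 for RBM33 shRNA-2 (INSIG1, FDFT1 and STARD4, beside 13.7%, 7.27% lower). All were lower than the scramble group that both hairpins of a set share. With 2 libraries behind 3 of the hairpins, leaving 1 of them out sets a lone library against the scramble group, and that library is assumed to vary as the other groups do. Fewer genes pass in such fits as a whole: 2.97% and 4.12% of all genes without ALKBH5 shRNA-1 replicate 1 or 2, 3.26% and 6.51% without ALKBH5 shRNA-2 replicate 1 or 3, and 5.22% and 5.57% without RBM33 shRNA-1 replicate 1 or 2. Without ALKBH5 scramble replicate 1 it was 5.08% for ALKBH5 shRNA-1 and 6.37% for ALKBH5 shRNA-2, and for RBM33 shRNA-1 it was 7.04% and 6.98% without RBM33 scramble replicate 1 or 2. Several calls of the 8 genes were lost in these fits, with the sign of the difference kept. INSIG1 with ALKBH5 shRNA-1 was -0.49 without its replicate 1 (limma adjusted p = 0.11). With ALKBH5 shRNA-2, INSIG1 was -0.39 without its replicate 3 (limma adjusted p = 0.16) and -0.41 without ALKBH5 scramble replicate 3 (limma adjusted p = 0.078). STARD4 with ALKBH5 shRNA-2 was -0.56 without its replicate 1 (limma adjusted p = 0.23), -0.78 without its replicate 3 (0.067), -0.58 without ALKBH5 scramble replicate 2 (0.12) and -0.63 without ALKBH5 scramble replicate 3 (0.091). For RBM33 shRNA-1, FDFT1 was -0.44 without replicate 1 (limma adjusted p = 0.071) and MVD -0.73 without replicate 2 (limma adjusted p = 0.12).

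The authors' deposited tables compare each hairpin with its scramble. In the authors' deposited edgeR results, 1, 3, 2 and 3 of the 8 genes had adjusted p-values under 0.05 for ALKBH5 shRNA-1, ALKBH5 shRNA-2, RBM33 shRNA-1 and RBM33 shRNA-2, beside 7.32%, 7.61%, 9.97% and 11.6% of all genes listed. In the authors' deposited DESeq2 tables the counts were 1, 3, 4 and 3, beside 13.8%, 15.7%, 12.4% and 14.0% of genes with an adjusted p-value. Each of these genes was lower with the shRNA. SREBF2 with ALKBH5 shRNA-2 had a log2 change of -0.36 (adjusted p = 0.047) in the authors' deposited edgeR table and of -0.18 (adjusted p = 0.43) in their deposited DESeq2 table. For ALKBH5 shRNA-1 the authors' deposited edgeR table called INSIG1 (-0.61, adjusted p = 0.013), while their deposited DESeq2 table called STARD4 (-0.71, adjusted p = 0.029).

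The wider sterol pathway was read from 5 lists, of which 44 tested genes beside the 8 were counted. The lists too were chosen with earlier results of these data known. Of these 44, 3 rose and 7 fell with the ALKBH5 shRNAs, beside 7.93% higher and 7.18% lower of all genes, with a median difference of -0.11 against 0.005 over all genes. In the RBM33 set 2 rose and 8 fell, beside 8.5% and 9.25% of all genes, with a median of -0.13 against -0.012. Of the 14 other enzymes of mevalonate and cholesterol synthesis counted, which are not the whole pathway, 1 rose and 1 fell in the ALKBH5 set (median -0.08), and 0 rose and 3 fell in the RBM33 set (median -0.27). CYP51A1, the lanosterol demethylase, fell by 0.38 in the ALKBH5 set (limma adjusted p = 0.012) and by 0.32 in the RBM33 set (limma adjusted p = 0.024). FDPS, which makes the farnesyl diphosphate that FDFT1 joins, fell by 0.41 in the RBM33 set (SE 0.07, limma adjusted p = 0.00044) and differed by -0.10 in the ALKBH5 set (limma adjusted p = 0.45). Its ALKBH5 scramble libraries all lay below the RBM33 scramble libraries, at means of 108 and 129 CPM. SC5D, a desaturase of late cholesterol synthesis, fell by 0.29 in the RBM33 set (SE 0.09, limma adjusted p = 0.034). Its ranges overlapped there, 43.4 to 59.9 CPM in the libraries labelled RBM33 shRNA against 59.2 to 69.8 CPM with RBM33 scramble. In the ALKBH5 set SC5D differed by -0.26 (limma adjusted p = 0.07). PMVK, the kinase before MVD, rose by 0.61 in the ALKBH5 set (SE 0.19, limma adjusted p = 0.029) and differed by -0.02 in the RBM33 set (limma adjusted p = 0.95). The difference between the sets did not pass for FDPS (limma adjusted p = 0.14), PMVK (limma adjusted p = 0.22) or SC5D (limma adjusted p = 0.96).

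Of 8 genes of SREBP control beside INSIG1 and SREBF2, 1 fell in the ALKBH5 set and 2 in the RBM33 set, and none rose. Of all genes, 7.18% fell and 7.93% rose in the ALKBH5 set, and 9.25% fell and 8.5% rose in the RBM33 set. MARCHF6, a ubiquitin ligase that also acts on SQLE, fell by 0.33 in the ALKBH5 set (SE 0.07, limma adjusted p = 0.0035) and differed by -0.15 in the RBM33 set (limma adjusted p = 0.15). SCAP, the escort of SREBP, fell by 0.34 in the RBM33 set (SE 0.11, limma adjusted p = 0.028) and differed by -0.30 in the ALKBH5 set (limma adjusted p = 0.07). INSIG2, the second retention protein, differed by -0.36 (limma adjusted p = 0.16) in the ALKBH5 set and by -0.01 (limma adjusted p = 0.98) in the RBM33 set. SREBF1, the gene of the related factor SREBP-1, differed by 0.29 in the ALKBH5 set (limma adjusted p = 0.065) and by 0.17 in the RBM33 set (limma adjusted p = 0.24). Of 7 tested genes of sterol uptake and transport counted beside STARD4, 1 fell in each set and none rose, beside the same shares of all genes.

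Genes of fatty acid synthesis that SREBP proteins also drive were called in both directions. Of 9, 1 rose and 4 fell in the ALKBH5 set, beside 7.93% higher and 7.18% lower of all genes. In the RBM33 set 2 rose and 2 fell, beside 8.5% higher and 9.25% lower of all genes. FASN, the fatty acid synthase, had 270 to 312 CPM with the ALKBH5 shRNAs, against 211 to 215 CPM with ALKBH5 scramble, and 302 to 354 CPM in the libraries labelled RBM33 shRNA, against 194 to 214 CPM with RBM33 scramble. It rose by 0.43 in the ALKBH5 set (SE 0.07, limma adjusted p = 0.00016) and by 0.66 in the other (SE 0.07, limma adjusted p = 1.8e-07). ACACA, the acetyl-CoA carboxylase before it, rose by 0.38 in the RBM33 set (limma adjusted p = 0.0005) and differed by 0.16 in the ALKBH5 set (0.15). FADS1, a desaturase of polyunsaturated fatty acids, fell by 0.46 in the ALKBH5 set (limma adjusted p = 0.00059) and by 0.42 in the RBM33 set (limma adjusted p = 0.0006). Its partner FADS2 fell by 0.48 in the RBM33 set (limma adjusted p = 0.018) and differed by -0.40 in the ALKBH5 set (0.059). ME1, a source of NADPH, and ELOVL6, an elongase, fell by 0.44 (limma adjusted p = 0.003) and 0.43 (limma adjusted p = 0.019) in the ALKBH5 set. In the RBM33 set ME1 differed by -0.26 (limma adjusted p = 0.054) and ELOVL6 by -0.17 (0.36). The difference between the sets passed for none of FASN, ACACA, FADS1, FADS2, ME1 and ELOVL6 (limma adjusted p-values of 0.23 to 0.94). Of 6 tested genes of sterol efflux, ABCA1, the cholesterol exporter, was the one called: it rose by 0.81 in the ALKBH5 set (SE 0.25, limma adjusted p = 0.033), and no gene of that list passed in the RBM33 set.

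**Figure D3:**
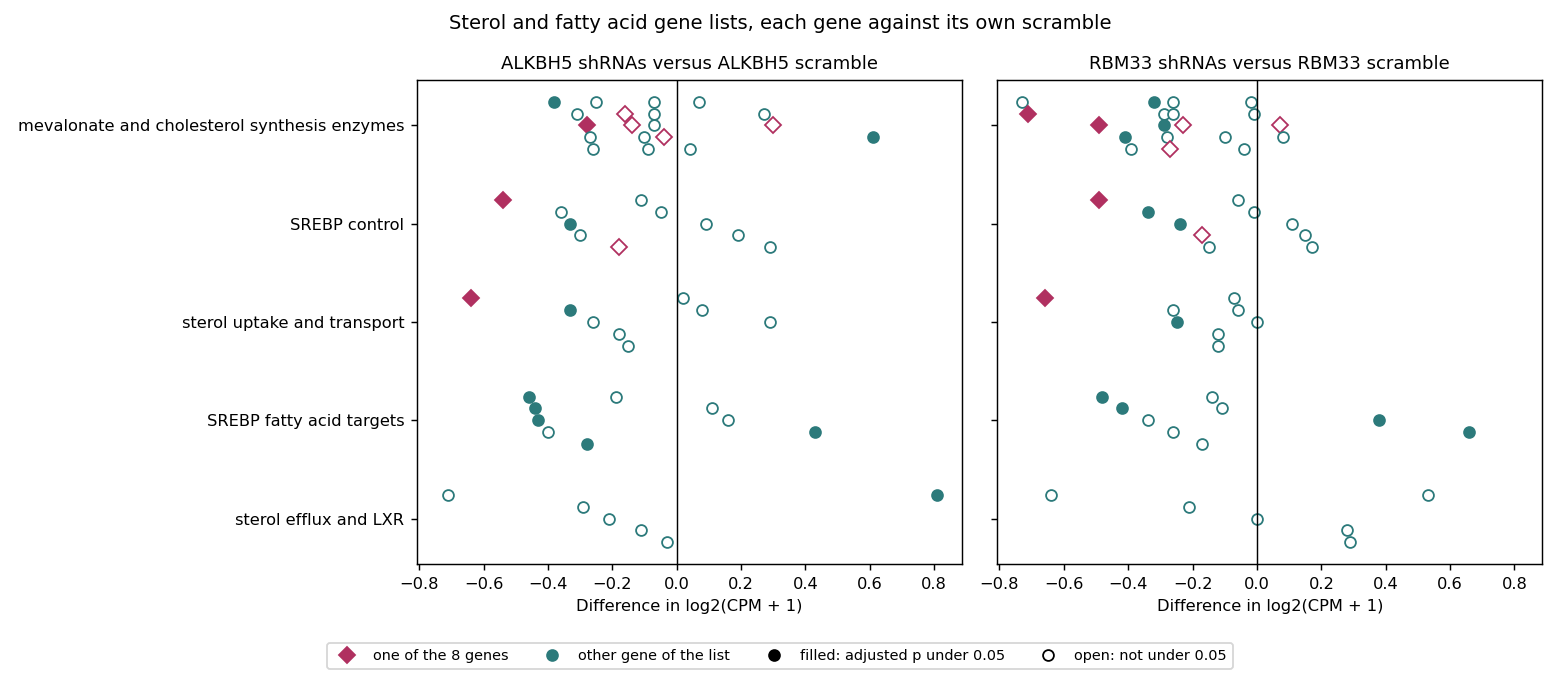
Difference in log2(CPM + 1) (horizontal axes) of each tested gene counted from 5 lists, in the ALKBH5 set (left) and the RBM33 set (right); diamonds are the 8 genes, circles the other list genes, and filled symbols have adjusted p-values under 0.05. Filled symbols lie on both sides of 0 among fatty acid targets in both sets, with FASN at 0.43 and 0.66, and among synthesis enzymes in the ALKBH5 set, with PMVK at 0.61.

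Several of these calls changed when 1 library was left out. ABCA1 was lost without any 1 of 5 libraries, ALKBH5 shRNA-1 replicate 2, ALKBH5 shRNA-2 replicate 1 and the 3 ALKBH5 scramble libraries (differences of 0.62 to 0.86, limma adjusted p-values up to 0.15), and PMVK without any 1 of 6, all but ALKBH5 shRNA-2 replicate 1 (0.45 to 0.66, up to 0.14). ELOVL6 was lost without any 1 of 4, ALKBH5 shRNA-1 replicate 1, ALKBH5 shRNA-2 replicate 3 and ALKBH5 scramble replicates 1 and 2 (-0.44 to -0.38, up to 0.067). SCAP in the RBM33 set was lost without any 1 of 5, RBM33 shRNA-1 replicate 2, RBM33 shRNA-2 replicate 3 and the 3 RBM33 scramble libraries (-0.38 to -0.27, up to 0.16). CYP51A1 was lost in the ALKBH5 set without ALKBH5 shRNA-2 replicate 1 or ALKBH5 scramble replicate 3 (adjusted p-values up to 0.066, limma), and in the RBM33 set without RBM33 shRNA-1 replicate 2 or any 1 scramble library (up to 0.089). FADS2 was lost in the RBM33 set without RBM33 scramble replicate 1 or 3 (up to 0.12). SC5D in the RBM33 set was lost without any 1 of 4, RBM33 shRNA-1 replicate 2, RBM33 shRNA-2 replicate 2 and RBM33 scramble replicates 1 and 3 (-0.29 to -0.23, up to 0.17), and in a fit of that set's groups alone (limma adjusted p = 0.053). With the length trend removed, PMVK (limma adjusted p = 0.053) and CYP51A1 in the RBM33 set (limma adjusted p = 0.07) also missed the threshold. Other calls were gained. SCAP in the ALKBH5 set was -0.34 with the replicate block (limma adjusted p = 0.011) and -0.38 without ALKBH5 shRNA-1 replicate 1 (limma adjusted p = 0.039) or ALKBH5 scramble replicate 3 (limma adjusted p = 0.044), and SREBF1 in that set was 0.33 with the length trend removed (limma adjusted p = 0.03). The calls of FASN, FADS1, FDPS, ACACA, ME1 and MARCHF6 given above were kept whichever library was left out.

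For m6A, the authors' deposited tables list 50-base windows (hg38) with an effect, shRNA against scramble, and a p-value. No source used here states the scale of the effect, which is read as a natural log from its values. They list no effect under 0.5 and give no value per library, so no error could be computed here. The highest p-values listed by the authors were 0.006 for ALKBH5 shRNA-1, 0.0083 for ALKBH5 shRNA-2, 0.00068 for RBM33 shRNA-1 and 0.0011 for RBM33 shRNA-2. The lists thus end at different p-values, and their numbers of windows are not directly comparable. The 4 tables list 12 windows in 6 of the 8 genes, 8 with a higher and 4 with a lower effect, and none in IDI1 or STARD4. For ALKBH5 shRNA-1, 3 of the 8 genes had a listed window, beside 32.6% of all tested genes and 44.8% of those with a mean level within the range of the 8 genes. For ALKBH5 shRNA-2 it was 3 of 8, beside 38.2% and 53.9%. For RBM33 shRNA-1 it was none, beside 7.94% and 9.35%, and for RBM33 shRNA-2 it was 1 of 8, beside 11.5% and 15.1%. Higher effects made up 64.7%, 72.5%, 87.6% and 87.5% of all windows in these tables. The authors' further tables of m6A levels with adjusted p-values held 725, 187, 23 and 20 windows. None of these lay in any of the 8 genes, beside 3.19%, 0.748%, 0.0991% and 0.0825% of all tested genes.

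FDFT1 had 3 windows with ALKBH5 shRNA-1 in the authors' deposited table. That table gives an effect of 1.70 (the authors' p = 0.00031) at chr8:11795723-11795772, 150 bases inside the annotated 5′ end, one of 2.22 (p = 0.0018) at chr8:11802774-11802823, and one of -0.87 (p = 0.001) at chr8:11802874-11802923. The last 2 are separated by 1 window's width and have opposite signs. SQLE had windows with both ALKBH5 hairpins, all between 31 and 931 bases from its annotated 5′ end. In the authors' deposited tables shRNA-1 gave 1.80 (p = 0.0041) at chr8:124998528-124998577 and 0.77 (p = 0.0015) at chr8:124999428-124999477, while shRNA-2 gave -0.68 (p = 0.0029) at chr8:124999178-124999227 and -0.58 (p = 0.0078) at chr8:124999378-124999427. The window of 0.77 and that of -0.58 adjoin each other, so the hairpins had opposite effects in neighbouring windows.

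The other windows were single or in 1 table. In the authors' deposited tables, INSIG1 had 1.83 with ALKBH5 shRNA-2 (p = 0.0015) at chr7:155298625-155298674, 849 bases inside its 5′ end. SREBF2 had 2.01 with the same hairpin (the authors' p = 0.0021) at chr22:41866851-41866900, 45.5% of the way along the gene. MVD had -1.16 with ALKBH5 shRNA-1 (the authors' p = 0.00044) at chr16:88656227-88656276. HMGCS1 had 0.53 (the authors' p = 0.00048) and 1.01 (p = 0.00053) with RBM33 shRNA-2 at chr5:43298642-43298691 and chr5:43298792-43298841. None of the 12 windows recurred in a second table. Whether a window lies in an exon or an untranslated region is not analysed here.

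**Figure D4:**
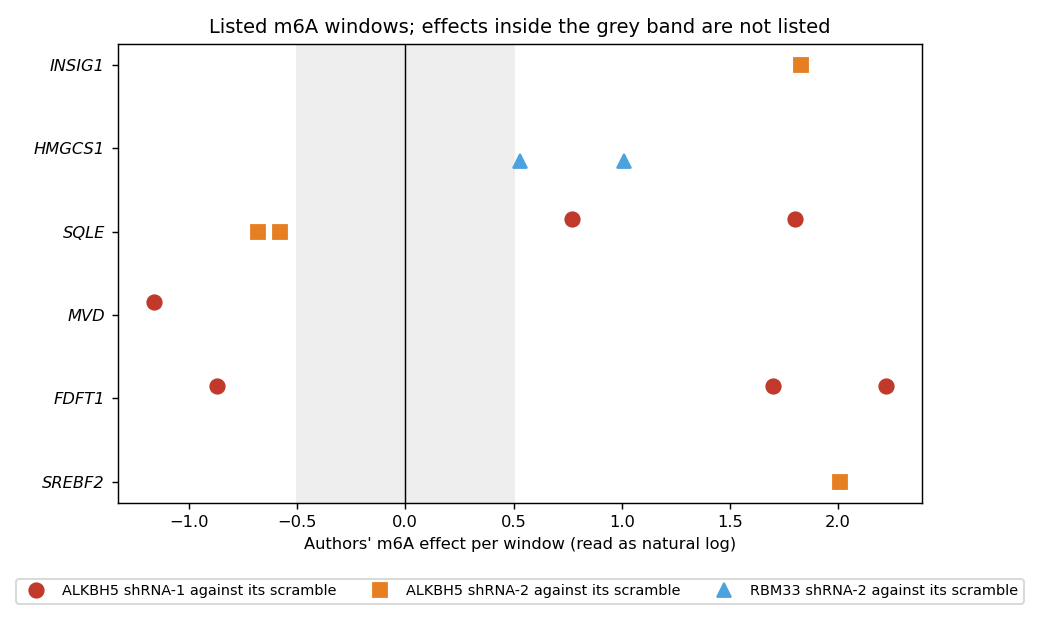
The authors' m6A effect, read as a natural log (horizontal axis), of each listed 50-base window in the 8 genes; colours and symbols give the hairpin, each against its scramble, and effects inside the grey band are not listed. SQLE has windows on both sides of 0 and so does FDFT1, and the 2 windows of HMGCS1 come from RBM33 shRNA-2.

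Across the 15 libraries the genes moved together in part. Pearson correlations of log2(CPM + 1) are given as a description, since libraries share groups. INSIG1 had r = 0.83 with the mean of the other genes, FDFT1 0.82, STARD4 0.74, SQLE 0.69, IDI1 0.65, MVD 0.51 and SREBF2 0.49, while HMGCS1 had -0.41. The closest pair was INSIG1 and STARD4, with r = 0.82. The mean of the 8 centred values was between -0.183 and -0.057 in all shRNA libraries and between 0.096 and 0.272 in all scramble libraries, highest in the RBM33 scramble group. It is built from the same levels as the calls above, so it is a description and no further test of them. Among 10803 other genes that averaged 10 CPM or more, those most like this mean were AP000944.5 (r = 0.98), MOXD1 (0.97), AC079781.5 (0.97), ASNS (0.97) and CKB (0.96), the top of a long ranking over 15 libraries. ASNS, the asparagine synthetase, differed by -0.67 in the ALKBH5 set and by -0.88 in the RBM33 set. Since it was picked for following a mean that is lower in the shRNA libraries, such differences come with the choice.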

How the data were processed

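RNA-seq levels of 15 libraries and the authors' m6A comparisons were used. Per the submitters' processing notes, cutadapt 1.18, HISAT2 2.1.0, featureCounts (Subread 1.6.4), edgeR 3.24.3 and DESeq2 were used with hg38. The authors deposited CPM, treated here as a normalized signal because columns sum to 954041.7 to 1050514.7; 100% of values were whole multiples of 1 read within 0.1 read, and these recovered read counts served the count-based alternatives. The authors also deposited log2 fold changes with adjusted p-values for each hairpin, and m6A effects with p-values. No source used here states the scale of the deposited m6A effects, and they were read as natural log values because 4.67% to 7.41% of effects are natural logarithms of multiples of 0.5, against 0% as log2. No source used here names the m6A peak caller.

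Groups were compared with limma 3.58.1 under R 4.3.3, its prior variance following expression, on log2(CPM + 1). A single fit of 6 group means covered 18227 genes averaging 1 CPM or more, with Benjamini-Hochberg adjustment. Contrasts were both hairpins against their scramble, each hairpin alone, the difference of the sets and the difference of the scramble groups; the script was tested on simulated data. A percent of the scramble mean averages over libraries, a log2 difference over groups. Alternatives were pseudocounts of 0.5 and 2, no filter and a mean of at least 5 CPM, a replicate block, quantile normalization, removal of the gene length trend, the groups compared alone, each library left out, edgeR 4.0.16 and DESeq2 1.42.0. The number of columns of other samples was 0. Replicate pairs differed by more than sampling noise (chi-square per degree of freedom 3.11 to 9.71), and none was merged. Libraries limit precision by counting, and floors cover counting error only.

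The 8 genes, the pathway and marker lists and the tests were chosen with earlier results of these data known. Named besides the 8 are SCAP, INSIG2, SREBF1, up to 8 called list genes a set with the largest differences, the 5 genes most like the mean of the 8, and the targeted genes. CH25H was not analysed here. Some further genes of the pathway and marker lists are not reported here and are left out of the list counts and medians.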

Additional observations from a re-analysis of the deposited data

How the results depend on the processing

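The 4 calls in the RBM33 set held under every alternative tried, 4 to 4 when any 1 library was left out. With 1 library left out, called genes numbered 1 to 3 for both ALKBH5 hairpins, 0 to 2 for ALKBH5 shRNA-1, 0 to 3 for ALKBH5 shRNA-2 and 1 to 2 for RBM33 shRNA-1. The share of all genes called moved too, at 9.38% to 15.7%, 2.97% to 9.07%, 3.26% to 10.8% and 5.22% to 11.7% for these comparisons. ALKBH5 shRNA-1 gave 2 with a mean of at least 5 CPM, with quantile normalization, with edgeR and with DESeq2, STARD4 being the added gene. In that order, 13.5%, 8.93%, 9.26% and 11% of genes tested were called for this hairpin, instead of 8.53%. RBM33 shRNA-1 gave 4 with a mean of at least 5 CPM, where 15.8% of genes tested were called instead of 10.9%. Of the 12 m6A windows, 5 had a p-value under 0.001, a limit chosen after seeing the data. For RBM33 shRNA-2 the authors listed no window with a p-value above 0.0011. Of 474 alternative values of the 8 genes, 465 kept direction and side of the threshold, 7 lost a call given with its value in the report, and 2 changed sign. These values are those of the comparisons over both hairpins, with MVD and HMGCS1 between the scramble groups and MVD between the sets. Values of single hairpins are not among them, and several of those calls were lost or gained, as given above.

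In 12 pairs of same-numbered libraries the correlation of deviations from group means was -0.17 to 0.15 (median 0.02), 2 of them over 0.1. In 25 pairs with different numbers it was -0.17 to 0.18 (median -0.01), 3 of them over 0.1. Deviations in a group of 2 libraries mirror each other, so these values cannot show that replicates were unpaired. With the replicate number as a block, 3 and 4 of the 8 genes were called in the ALKBH5 and RBM33 sets, and 2473 and 3046 of all genes instead of 2754 and 3235. Under the block ABCA1 was 0.78 in the ALKBH5 set (limma adjusted p = 0.053).

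Some values near 0, called in none of these settings, changed sign. With 1 library left out, the difference in the ALKBH5 set was -0.18 to 0.10 for MVD, and in the RBM33 set -0.16 to 0.15 for INSIG2. INSIG2 in that set was 0.01 with the replicate block, 0.03 with quantile normalization, 0.04 with the length trend removed, 0.01 with edgeR and 0.02 with DESeq2.

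Depth limits the low genes: MVD rests on 38 to 108 reads a library, STARD4 on 40 to 137 and ABCA1 on 16 to 66. Groups of 2 libraries leave the single-hairpin calls exposed to each library. The m6A values cannot be checked against replicates.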
